A study of Rattus norvegicus with 32 samples.

Results

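Oligodendrocyte lineage genes were followed in the nucleus accumbens shell of rats, across 32 libraries of polyadenylated RNA. They were 8 genes, chosen by symbol from the 34322 rows of the count table: the lineage transcription factors Olig1, Olig2, Sox10, Nkx2-2 and Myrf, the precursor cell markers Pdgfra and Cspg4, and Gpr17, a marker of precursors that have begun to differentiate. All 8 were present under these names, and all 8 were among the 17059 genes with enough counts to be tested. Their lowest count in any library was 49, for Nkx2-2.

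The rats had been fear conditioned with shocks paired with an anxiety cue (lemon odour) or with a neutral cue, and the cue was later placed in tests of anxiety. Cannabidiol (CBD, a compound of the cannabis plant that does not intoxicate) or vehicle was given before those tests, and tissue was taken after a last shock. The groups, of 8 libraries each, were CBD with the anxiety cue, vehicle with the anxiety cue, CBD with the neutral cue and vehicle with the neutral cue. The shock was thus common to all groups, all rats were labelled wild type, and no group went without shock. The labels give no age, sex, strain, dose or batch, and whether every library is a different rat is not stated. The p-values here thus reflect the spread among libraries alone, part of which may be technical.

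Oligodendrocytes, the myelin-forming cells of the brain, arise from precursor cells that persist and divide in the adult. Olig2 and Sox10 are made throughout the lineage, Pdgfra and Cspg4 mark precursors and are lost on differentiation, Gpr17 marks a brief stage between precursor and oligodendrocyte, and Myrf is needed for the myelin genes to be switched on. The accumbens shell is a region of grey matter in the ventral striatum next to white matter tracts and the septum.

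Library depth was 11.65 to 24.0 M counts. Levels are given in CPM, the usual depth-scaled count of a gene, after TMM scaling, a correction for differences in library composition. Levels of different genes were not compared with each other, since gene lengths were not used. Markers of other tissue set some libraries apart, at cut-offs known from earlier work on these data. Slc17a6, the vesicular glutamate transporter of septal and diencephalic neurons, reached 20 CPM in 6 libraries, which were 2 of CBD with the anxiety cue, 1 of vehicle with the anxiety cue, 0 of CBD with the neutral cue and 3 of vehicle with the neutral cue. Plin1, a fat cell gene, reached 5 CPM in 2 libraries of CBD with the anxiety cue, 3 of vehicle with the anxiety cue, 0 of CBD with the neutral cue and 5 of vehicle with the neutral cue. Alb, the liver gene for albumin, reached 20 CPM in 4 of CBD with the anxiety cue, 2 of vehicle with the anxiety cue, 4 of CBD with the neutral cue and 0 of vehicle with the neutral cue. Slc17a7, the glutamate transporter of cortical neurons, was at 877 CPM in library 6 of CBD with the neutral cue and at no more than 62.3 CPM in the other 31.

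Promoter sequences from RefSeq (assembly GRCr8) were held for 5 of the 8 genes: Olig2, Nkx2-2, Pdgfra, Cspg4 and Gpr17. The 250 bases before the start of the gene are printed for Olig2, which differed most between CBD and vehicle under the neutral cue, and for Pdgfra, which varied least between libraries. The Olig2 sequence lies on the plus strand at chr11:43961335-43961584 and the Pdgfra sequence on the minus strand at chr14:33408517-33408766, both written 5′ to 3′. Capitals mark matches to the motifs searched on both strands, which were CANNTG (the E-box read by basic helix-loop-helix factors such as Olig1 and Olig2) and ACAAT and ACAAAG (core letters read by SOX factors such as Sox10).
Olig2: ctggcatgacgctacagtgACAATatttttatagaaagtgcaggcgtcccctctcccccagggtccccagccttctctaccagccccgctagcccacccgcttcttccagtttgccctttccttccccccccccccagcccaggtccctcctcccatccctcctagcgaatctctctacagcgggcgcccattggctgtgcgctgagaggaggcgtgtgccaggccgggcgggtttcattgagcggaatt
Pdgfra: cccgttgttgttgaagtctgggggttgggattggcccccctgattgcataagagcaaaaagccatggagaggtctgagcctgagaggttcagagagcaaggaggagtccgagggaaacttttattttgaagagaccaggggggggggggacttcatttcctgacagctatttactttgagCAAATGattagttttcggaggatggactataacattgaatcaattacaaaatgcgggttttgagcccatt
The single match in the Olig2 sequence was ACAAT, whose first base lay 231 bases before the start. The single match in the Pdgfra sequence was CAAATG, an E-box beginning 70 bases before the start. The stretches of Nkx2-2, Cspg4 and Gpr17 held 0 matches to the 3 motifs. Among the 33469 promoters in the RefSeq table, 65.5% held CANNTG in the same 250 bases, 30.0% held ACAAT and 16.3% held ACAAAG. A match describes the letters and does not show that a factor binds there.

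CBD was compared with vehicle under the neutral cue first, because the 8 genes differed most there. All 8 were lower on average in the CBD neutral-cue libraries than in the vehicle neutral-cue libraries, and Olig2 and Olig1 were lowest relative to vehicle. Their levels were 0.699 and 0.735 times those of the vehicle libraries. None of the 8 passed the threshold of an adjusted p under 0.05 (edgeR's quasi-likelihood test, Benjamini-Hochberg over 17059 genes), and the share of all genes that passed was 0%. An unadjusted p under 0.05 was reached by 7 of the 8, against 22.6% of all genes. The median log2 fold change of the 8 was -0.30, against 0.0055 for all genes, of which 49.1% were below 0. In bulk tissue such as this, fewer cells of the lineage and less RNA per cell cannot be told apart.

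**Figure D1:**
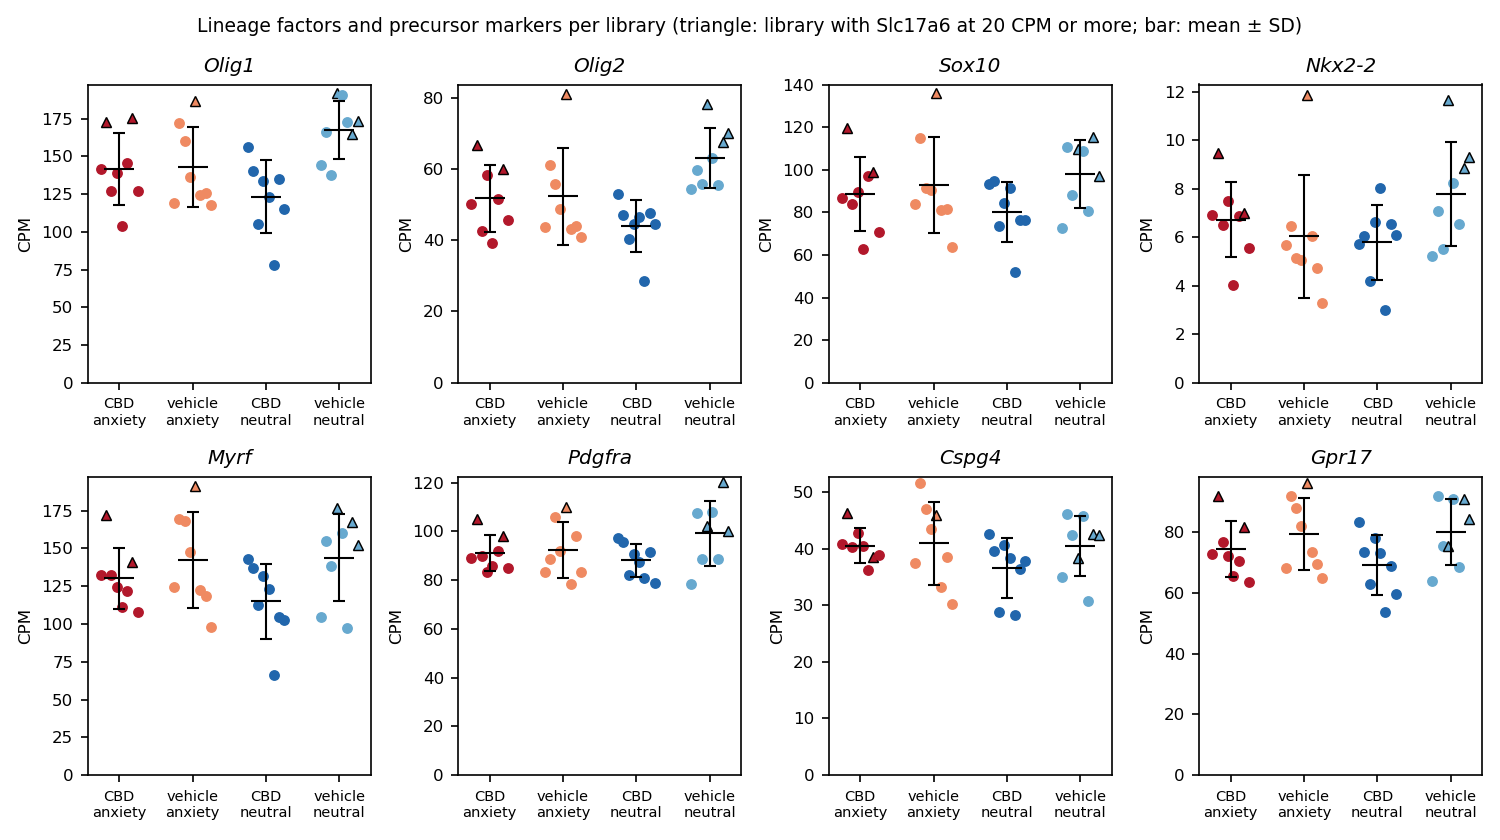
Level of each of the 8 genes in CPM (vertical axis, from 0) in every library, by group; points are libraries, triangles are libraries with Slc17a6 at 20 CPM or more, and bars are the mean ± SD of 8 libraries. The Olig2 points of CBD neutral-cue libraries (28.6 to 53.0 CPM) lie wholly below those of vehicle neutral-cue libraries (54.4 to 78.1 CPM), while the other genes overlap.

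Olig2, the helix-loop-helix factor that specifies the lineage, ranged from 28.6 to 53.0 CPM with a median of 45.5 CPM in CBD neutral-cue libraries, against 54.4 to 78.1 CPM with a median of 61.4 CPM in vehicle neutral-cue libraries. It was the only one of the 8 genes whose libraries did not overlap, and every CBD library lay below every vehicle library. The libraries of 18 of the 17059 genes (0.106%) did not overlap in this comparison. The log2 fold change was -0.52 with a standard error (SE) of 0.130, a 95% interval of -0.78 to -0.25, an unadjusted p of 0.000363 and an adjusted p of 0.0697. That adjusted p equals the lowest of any gene in the comparison, and Olig2 stood at rank 82 of 17059 genes by p.

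Olig1, the neighbour of Olig2 on chromosome 11 with 0 genes between them in the GRCr8 table, is a related factor that acts later, in differentiation and repair. It ranged from 77.9 to 156 CPM with a median of 128 CPM in CBD neutral-cue libraries, against 138 to 192 CPM with a median of 169 CPM in vehicle neutral-cue libraries. All 8 CBD libraries were below the vehicle median, although the highest CBD libraries overlapped the lowest vehicle ones. The log2 fold change was -0.44 (SE 0.120), with an adjusted p of 0.0829 by edgeR and rank 171 by p.

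Sox10, an HMG-box factor needed for survival and terminal differentiation of the lineage, had a median of 80.6 CPM (52.2 to 94.6) in CBD neutral-cue libraries and 103 CPM (72.6 to 115) in vehicle neutral-cue libraries. The groups overlapped widely, but no CBD library reached the vehicle median. The log2 fold change was -0.29 (SE 0.137, adjusted p = 0.214 by edgeR).

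Nkx2-2, a homeodomain factor that promotes the step from precursor to oligodendrocyte, was the least counted of the 8. Its median was 6.07 CPM (3.01 to 8.03) in CBD neutral-cue libraries and 7.66 CPM (5.25 to 11.7) in vehicle neutral-cue libraries. Only 1 of 8 CBD libraries was above the vehicle median, and the ranges overlapped. The log2 fold change of -0.43 was close to that of Olig1, but its SE of 0.209 was larger and its adjusted p was 0.215 by edgeR.

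Myrf, the membrane-bound factor that turns on myelin genes, had a median of 118 CPM (66.0 to 143) in CBD neutral-cue libraries and 154 CPM (97.5 to 177) in vehicle neutral-cue libraries. All 8 CBD libraries lay below the vehicle median, within overlapping ranges. The log2 fold change was -0.32 (SE 0.144, adjusted p = 0.187 by edgeR).

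Pdgfra, the receptor through which platelet-derived growth factor keeps precursors dividing, had a median of 89.1 CPM (78.7 to 97.2) in CBD neutral-cue libraries and 101 CPM (78.3 to 120) in vehicle neutral-cue libraries. The vehicle range enclosed the whole CBD range, and all 8 CBD libraries were below the vehicle median. Its log2 fold change was -0.17 (SE 0.077, adjusted p = 0.193 by edgeR).

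Cspg4, the NG2 proteoglycan of the precursor surface, had a median of 38.1 CPM (28.4 to 42.7) in CBD neutral-cue libraries and 42.5 CPM (30.9 to 46.1) in vehicle neutral-cue libraries. It was the 1 gene of the 8 with an unadjusted p above 0.05 here. Its log2 fold change was -0.14 (SE 0.100, adjusted p = 0.376 by edgeR). Of its CBD libraries, 1 of 8 was above the vehicle median. The span of Cspg4 overlaps those of Cimap1c and a tRNA gene in the GRCr8 table, which were not analysed here, so a share of their reads in Cspg4 is uncertain. Pdgfra is also made by fibroblasts and Cspg4 by pericytes, and the markers of these cells are given below with the other lists.

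Gpr17, an orphan receptor of the committed stage, had a median of 71.1 CPM (53.8 to 83.6) in CBD neutral-cue libraries and 79.9 CPM (64.0 to 91.9) in vehicle neutral-cue libraries. The ranges overlapped over most of their length, with 1 of 8 CBD libraries above the vehicle median. The log2 fold change was -0.21 (SE 0.098, adjusted p = 0.200 by edgeR). The span of Gpr17 overlaps that of Lims2 in the GRCr8 table, and no source used here tells whether counting kept the strands apart, so the share of Lims2 reads in Gpr17 is uncertain. Lims2 had 17 to 95 counts per library, against 836 to 2031 for Gpr17.

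**Figure D2:**
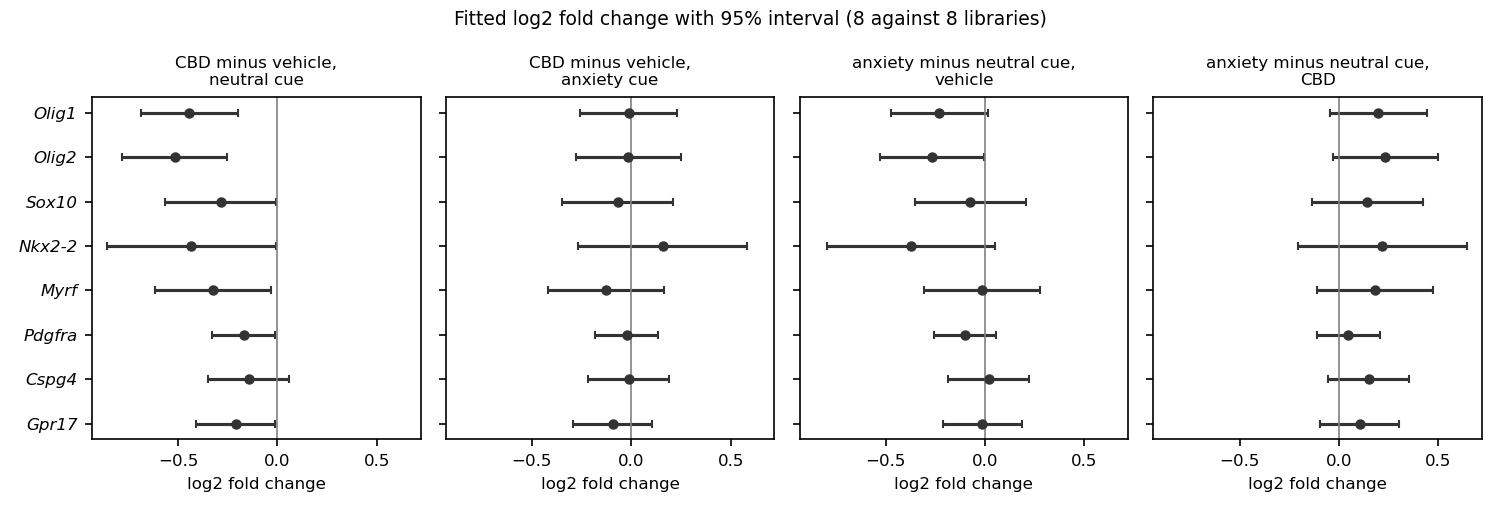
Log2 fold change of each of the 8 genes (horizontal axis) in each comparison, with the 95% interval of the edgeR fit as bars. All 8 estimates lie below 0 for CBD against vehicle under the neutral cue, from -0.52 for Olig2 to -0.14 for Cspg4, and near 0 for CBD against vehicle under the anxiety cue.

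The threshold call depended on the test. DESeq2, run on the same counts, called 2 of the 8 genes, Olig2 (adjusted p = 0.0163) and Olig1 (adjusted p = 0.0321), and called 349 of the 17059 genes (2.05%). Its log2 fold changes were -0.52 for Olig2 and -0.44 for Olig1. With edgeR, leaving out library 5 of vehicle with the anxiety cue, which is in neither of the groups compared but enters the shared estimate of spread, gave Olig2 an adjusted p of 0.0479, and 0.963% of all genes were then called. Without the 10 libraries high in Plin1, Olig2 (-0.55, adjusted p = 0.0122) and Olig1 (-0.47, adjusted p = 0.0321) were called, together with 15.7% of all genes. That fit kept 3 vehicle neutral-cue libraries. Of these, library 7 and library 8 were high in Slc17a6 (37.1 and 40.9 CPM), against 0 of the CBD neutral-cue libraries. The part of Slc17a6 in these calls was not tested.

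Tissue markers also stood apart between these groups, with none past the threshold by edgeR. Medium spiny neuron markers, which define the striatum, stood at a median of 0.53 on the log2 scale in the same comparison, and 15 of 15 were above 0. Septal and diencephalic markers had a median of -0.81, with 4 of 4 tested genes below 0. Without the 6 libraries high in Slc17a6, the log2 fold change was -0.39 for Olig2 and -0.40 for Olig1 (adjusted p = 0.212 and 0.226 by edgeR). With library 6 of CBD with the neutral cue left out as well, the values were -0.33 for both Olig2 and Olig1. By edgeR, 31 of 17261 genes were called in the first of these fits and 18 of 17244 in the second, with 0 of the 8 among them. Olig2 and Olig1 were the 2 of the 8 that still had an unadjusted p under 0.05 in each. The share of all genes at that level is not given for these fits, so this count stands without a comparison.

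With the mean of the 15 medium spiny neuron markers as a covariate, the difference was -0.29 for both Olig2 and Olig1, -0.09 for Sox10 and -0.07 for Nkx2-2, with adjusted p-values of 0.341 to 0.941 by edgeR over the 8 genes. In library 6 of CBD with the neutral cue, the library with high Slc17a7, 7 of the 8 genes had their lowest level of all 32 libraries. Leaving out this library alone gave -0.45 for Olig2 and -0.37 for Olig1. The part of these tissue markers in the difference was not tested beyond these fits.

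CBD and vehicle lay closer together under the anxiety cue. Of the 8 genes, 7 were below 0 and 1 was above, with log2 fold changes from -0.13 for Myrf to 0.16 for Nkx2-2 and a median of -0.019. Of all genes, 51.7% were below 0. None passed the threshold in edgeR or DESeq2, as was so for 0% of all genes, and 0 of the 8 had an unadjusted p under 0.05, against 1.58% of all genes. The libraries of all 8 overlapped, and 0% of genes had libraries that did not. Without the 10 libraries high in Plin1 all 8 estimates were above 0, at 0.17 for Olig2 and 0.13 for Olig1. Of the anxiety-cue libraries high in Slc17a6, that fit left out library 5 of vehicle and library 2 of CBD. It kept library 7 of CBD.

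Olig2 had a median of 50.8 CPM (39.3 to 66.7) in CBD anxiety-cue libraries and 46.4 CPM (40.9 to 81.1) in vehicle anxiety-cue libraries. Its log2 fold change was -0.015, with a 95% interval of -0.28 to 0.25. Olig1 had a median of 140 CPM (104 to 175) in CBD anxiety-cue libraries and 131 CPM (118 to 187) in vehicle anxiety-cue libraries. Its log2 fold change was -0.013 (interval -0.26 to 0.23). The medians of both genes were thus slightly higher with CBD while the fitted differences were slightly below 0, and the highest single library was a vehicle library for both.

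Sox10 had a median of 88.2 CPM (62.9 to 120) in CBD anxiety-cue libraries and 87.5 CPM (63.7 to 136) in vehicle anxiety-cue libraries. Myrf had 128 CPM (108 to 172) in CBD anxiety-cue libraries and 136 CPM (97.9 to 191) in vehicle anxiety-cue libraries. Nkx2-2 had 6.89 CPM (4.03 to 9.47) in CBD anxiety-cue libraries and 5.43 CPM (3.29 to 11.9) in vehicle anxiety-cue libraries. These factors overlapped almost completely, and 7 of 8 CBD libraries were above the vehicle median for Nkx2-2, the 1 gene with an estimate above 0.

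Pdgfra had a median of 89.4 CPM (83.2 to 105) in CBD anxiety-cue libraries and 90.2 CPM (78.2 to 110) in vehicle anxiety-cue libraries. Cspg4 had 40.4 CPM (36.3 to 46.4) in CBD anxiety-cue libraries and 41.0 CPM (30.3 to 51.6) in vehicle anxiety-cue libraries. Gpr17 had 72.5 CPM (63.7 to 92.1) in CBD anxiety-cue libraries and 77.8 CPM (65.1 to 96.2) in vehicle anxiety-cue libraries. For all 3 the CBD range was the narrower one and lay almost wholly within the vehicle range.

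The cue was compared within each drug, so that each of these comparisons shares its libraries with those of CBD. In vehicle-treated rats, 7 of the 8 genes were lower with the anxiety cue than with the neutral cue, with a median log2 fold change of -0.088, against 0.00037 for all genes, of which 49.9% were below 0. None passed the threshold in edgeR or in DESeq2 (0% of all genes in either). An unadjusted p under 0.05 was reached by 1 of the 8, Olig2, and by 12.7% of all genes. The libraries of all 8 genes overlapped, and 0.00586% of genes had libraries that did not.

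For Olig2 the log2 fold change between vehicle anxiety-cue and vehicle neutral-cue libraries was -0.27 (SE 0.129, adjusted p = 0.389 by edgeR). Only 1 of 8 anxiety-cue libraries was above the neutral-cue median. Nkx2-2 was at -0.37 (SE 0.208, adjusted p = 0.418) and Olig1 at -0.23 (SE 0.120, adjusted p = 0.399). The other 5 genes were nearer 0, between -0.10 for Pdgfra and 0.018 for Cspg4. Without the 10 libraries high in Plin1, 3 of the 8 were called here, together with 16.9% of all genes. The 3 were Olig2 at -0.56, Olig1 at -0.47 and Nkx2-2 at -0.74. That fit left out library 5 of vehicle with the anxiety cue, the 1 library of its group high in Slc17a6 (47.0 CPM). It kept 3 vehicle neutral-cue libraries, of which library 7 and library 8 were high in Slc17a6. The part of Slc17a6 in these calls was not tested.

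In CBD-treated rats all 8 genes were higher with the anxiety cue than with the neutral cue, with log2 fold changes from 0.047 for Pdgfra to 0.23 for Olig2 and a median of 0.16. The median of all genes was -0.0035, and 51.2% of them were below 0. None of the 8 passed the threshold in edgeR or DESeq2 (0% of all genes in either), and 0 had an unadjusted p under 0.05, against 3.94% of all genes. The adjusted p was 0.995 for each. Every gene's libraries overlapped, and 0.0176% of all genes had libraries that did not. With 1 library left out the estimates stayed above 0 but several shrank by more than 1.5 times. Without library 6 of CBD with the neutral cue Olig1 was at 0.13, Nkx2-2 at 0.12 and Myrf at 0.095, and without library 2 of CBD with the anxiety cue Sox10 was at 0.069, Gpr17 at 0.054 and Pdgfra at 0.014. Pdgfra turned to -0.016 without the 6 libraries high in Slc17a6.

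The difference of the CBD effect between cues was tested as an interaction, the CBD effect under the anxiety cue minus that under the neutral cue. All 8 estimates were above 0, with a median of 0.21, against -0.0075 for all genes, of which 51.2% were below 0. Olig2 was at 0.50 (SE 0.183, adjusted p = 0.321 by edgeR) and Olig1 at 0.43 (SE 0.170, adjusted p = 0.324). Nkx2-2 had the largest estimate, 0.59, with the largest SE, 0.295 (adjusted p = 0.367). The other 5 lay between 0.12 for Gpr17 and 0.22 for Sox10. Myrf, at 0.20, turned to -0.0090 with the neuron marker covariate. None of the 8 passed the threshold in edgeR or DESeq2 (0% of genes by edgeR and 0.0645% by DESeq2), and 2 of the 8 had an unadjusted p under 0.05, against 13.8% of genes. Without the libraries high in Plin1, Olig2 was called at 0.72, as were 8.4% of all genes. Libraries high in Slc17a6 that stayed in that fit were library 7 of CBD with the anxiety cue and libraries 7 and 8 of vehicle with the neutral cue.

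Across the 4 groups the mean level was lowest with CBD and the neutral cue for all 8 genes and highest with vehicle and the neutral cue for 7 of the 8. Olig2, for example, averaged 51.8 ± 9.35 CPM with CBD and the anxiety cue, 52.3 ± 13.5 CPM with vehicle and the anxiety cue, 44.0 ± 7.19 CPM with CBD and the neutral cue and 63.0 ± 8.41 CPM with vehicle and the neutral cue (SD, n = 8 each). Both anxiety-cue groups stood between the neutral-cue groups and differed from each other by less than either SD. The exception was Cspg4, which averaged 40.6 ± 3.04 CPM with CBD and the anxiety cue, 41.0 ± 7.31 CPM with vehicle and the anxiety cue, 36.6 ± 5.28 CPM with CBD and the neutral cue and 40.5 ± 5.35 CPM with vehicle and the neutral cue. The upper 3 of these means differed by less than their SDs.

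Spread between libraries differed among the 8 genes. Pdgfra varied least, with a coefficient of variation of 11.3% over the 32 libraries and a highest level 1.54 times the lowest. Nkx2-2 varied most, with 31.1% and 3.95 times. Library 5 of vehicle with the anxiety cue, 1 of the 6 high in Slc17a6, was the highest of all 32 for 5 of the 8 genes: Olig2, Sox10, Nkx2-2, Myrf and Gpr17.

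The 6 libraries high in Slc17a6 had higher medians than the other 26 for all 8 genes. Olig2 had a median of 68.8 CPM (60.0 to 81.1) in the 6 and 47.4 CPM (28.6 to 63.2) in the 26. Nkx2-2 had 9.40 CPM (7.02 to 11.9) in the 6 and 6.04 CPM (3.01 to 8.25) in the 26. Among the precursor markers the gap was smaller: Pdgfra had 104 CPM (98.0 to 120) in the 6 and 88.5 CPM (78.2 to 108) in the 26, and Cspg4 had 42.6 CPM (38.4 to 46.4) in the 6 and 39.2 CPM (28.4 to 51.6) in the 26. These libraries were grouped by a marker and not by treatment, so no test is given.

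**Figure D3:**
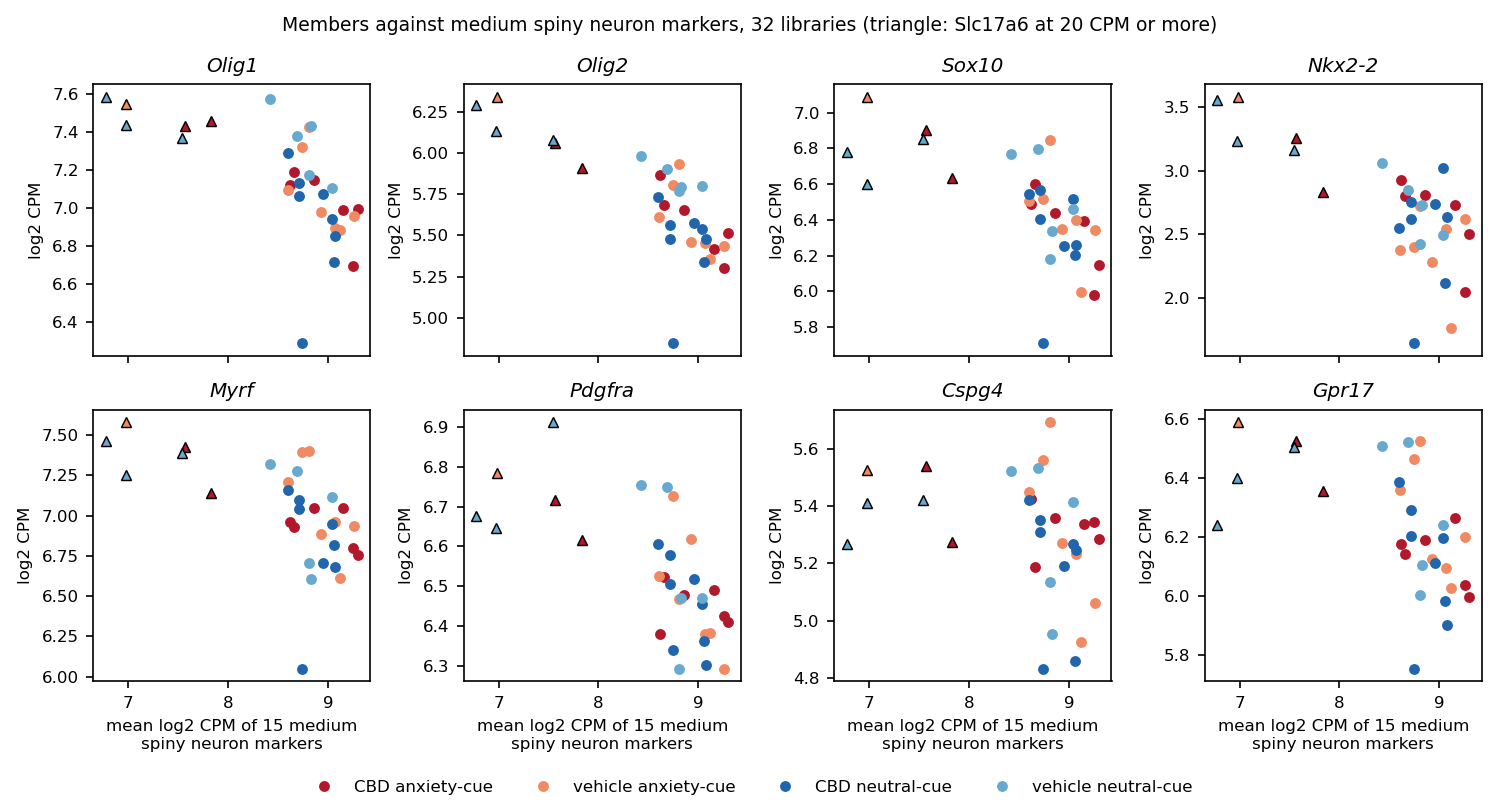
Log2 CPM of each of the 8 genes (vertical axis) against the mean log2 CPM of 15 medium spiny neuron markers (horizontal axis) in the 32 libraries, coloured by group, with triangles for libraries at 20 CPM of Slc17a6 or more. The 6 triangles lie apart at the low end of the neuron markers and high for most of the genes. The points drawn are not centred on their group means. For group-centred values of the 26 other libraries, r is below 0 for each gene, from -0.55 for Pdgfra to -0.29 for Nkx2-2.

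Within groups, the 8 genes varied together from library to library. Log2 CPM was centred on the group mean, so that differences between groups do not enter, and Pearson's r was computed for the 28 pairs. Over 32 libraries r was 0.55 to 0.91 with a median of 0.79, and all 28 pairs had a permutation p, adjusted over the 28, under 0.05. Spearman's rho was 0.48 to 0.92, also with 28 of 28 under 0.05, and r without the 2 libraries farthest from the median was 0.46 to 0.90. In the 26 libraries without high Slc17a6, r was 0.34 to 0.93 with a median of 0.76 (27 of 28 adjusted p under 0.05) and rho was 0.30 to 0.96. Genes of 1 library share its depth and its dissection, so these values describe variation in common and not control of one gene by another.

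The closest pairs were Sox10 with Myrf (r = 0.91, rho = 0.92) and Olig1 with Olig2 (r = 0.91, rho = 0.88), each with an adjusted permutation p of 1.40e-05 for r. Myrf with Gpr17 followed (r = 0.90, rho = 0.90). The loosest were Nkx2-2 with Cspg4 (r = 0.55, rho = 0.48, adjusted permutation p = 0.00309) and Nkx2-2 with Pdgfra (r = 0.55, rho = 0.48, adjusted permutation p = 0.00216). In the 26 libraries the pair of Nkx2-2 and Pdgfra was the 1 that missed the threshold (r = 0.34, rho = 0.30, adjusted permutation p = 0.0843).

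**Figure D4:**
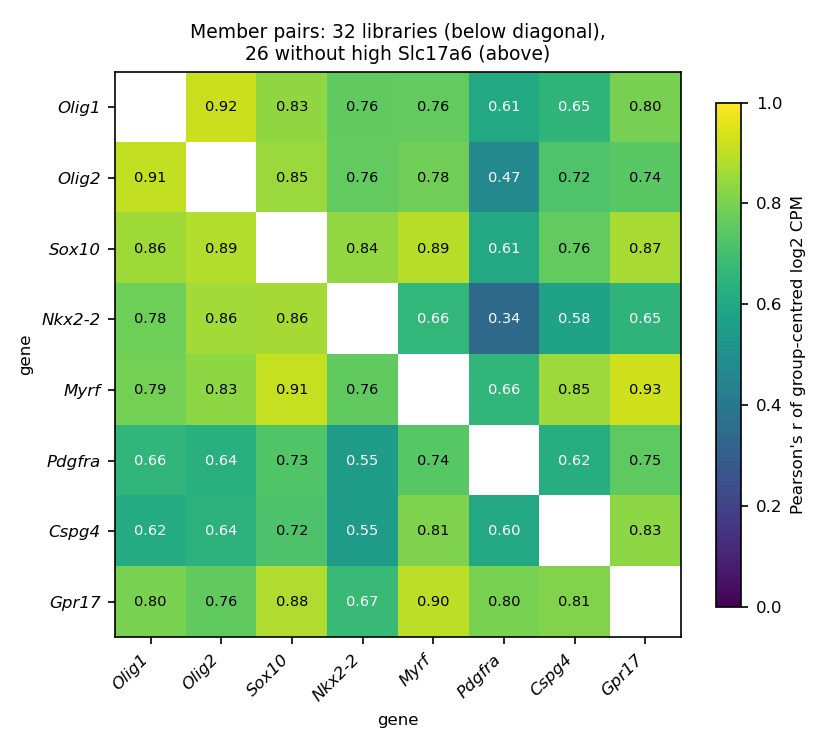
Pearson's r of group-centred log2 CPM for each pair of the 8 genes (colour scale from 0 to 1), over 32 libraries below the diagonal and over the 26 libraries with Slc17a6 under 20 CPM above it. The highest values are those of Sox10 with Myrf (0.91) and Olig1 with Olig2 (0.91) below the diagonal, and the lowest value above it is that of Nkx2-2 with Pdgfra (0.34).

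The genes whose levels ran closest to each of the 8 were listed by r over the same 32 libraries, as a description with no test. Olig1 was closest to Csrp1 (0.94), Prr18 (0.94) and Olig2 (0.91), and Olig2 to Wscd1 (0.92), Timp4 (0.92) and Hapln2 (0.91). Sox10 was closest to Wscd1 (0.94), Mag (0.93) and Fa2h (0.92), and Myrf to Mag (0.94), Myo1d (0.94) and Plxnb3 (0.94). Mag, Fa2h and Hapln2 belong to the list of mature myelin genes, Mag being a glycoprotein of the inner myelin membrane and Fa2h an enzyme that makes myelin lipids.

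Nkx2-2 was closest to Cdc42ep1 (0.86), Sox10 (0.86) and Olig2 (0.86). Cspg4 was closest to Gpr17 (0.81), Myrf (0.81) and Phldb1 (0.79), and Gpr17 to Phldb1 (0.91), Myrf (0.90) and Mag (0.88). Pdgfra stood apart in that none of its 3 closest genes, Fyco1 (0.86), Soga1 (0.83) and Map4k4 (0.82), was one of the 8 or of the myelin list.

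Against the mean of 20 mature myelin genes, r over 32 libraries was 0.56 for Cspg4 to 0.90 for Olig2 (rho 0.51 to 0.84), and 8 of 8 adjusted permutation p-values were under 0.05 in a family of 32 relations with 4 lists. Without the 2 farthest libraries r was 0.46 to 0.84. Against the mean of 19 other precursor genes, which include Vcan, Ptprz1 and Pcdh15, r was 0.36 for Cspg4 to 0.68 for Pdgfra (rho 0.40 to 0.67), with 7 of 8 adjusted p under 0.05 for r. In the 26 libraries without high Slc17a6 the precursor list reached 0.038 for Nkx2-2 to 0.50 for Pdgfra, with 1 of 8 under 0.05. The same 26 libraries gave 0.54 to 0.83 for the myelin list, with 8 of 8 under 0.05. Without the 2 libraries of the 26 farthest from the median of each list, r was 0.25 to 0.74 for the precursor list and 0.38 to 0.71 for the myelin list, and the gap between the lists was smaller.

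Against the mean of the medium spiny neuron markers, no r over all 32 libraries is given, since the 6 libraries high in Slc17a6 lie apart. In the 26 others r was -0.55 for Pdgfra to -0.29 for Nkx2-2 (rho -0.67 to -0.34), with 5 of 8 adjusted permutation p-values under 0.05 for r and 7 of 8 for rho. It was -0.50 for Olig2 and -0.53 for Olig1. Without the 2 farthest of the 26, r was -0.58 to -0.18. Every estimate was below 0, but Nkx2-2 passed by neither measure (adjusted permutation p = 0.288 for r), and Myrf and Cspg4 passed for rho alone. The 6 libraries lie in 3 groups, so no r was computed within them. For the remaining list, septal and diencephalic markers, which holds Slc17a6 itself, values are likewise given for the 26 libraries alone. There r was -0.082 for Myrf to 0.18 for Gpr17 (rho 0.16 to 0.43). By either measure 0 of 8 adjusted permutation p-values were under 0.05. Without the 2 libraries farthest from the median of that list, r was 0.20 to 0.66.

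Other genes of the lineage, from lists chosen with earlier results of these data known, were set beside the 8. No listed gene passed the threshold in any comparison by edgeR. Under the neutral cue, CBD against vehicle, the 19 other precursor genes stood at a median of -0.035 on the log2 scale with 12 below 0, and 5 of 19 had an unadjusted p under 0.05 on the lower side and 1 on the higher. The 14 genes of committed precursors and newly formed oligodendrocytes had a median of -0.33 with 14 of 14 below 0, 9 of them at an unadjusted p under 0.05. The 20 mature myelin genes had a median of -0.40 with 19 of 20 below 0, all 19 at an unadjusted p under 0.05. Of all genes in this comparison, 22.6% had an unadjusted p under 0.05 in either direction and 49.1% were below 0. The 8 genes, at a median of -0.30, thus stood nearer to the committed and myelin lists than to the other precursor genes. This median does not describe each of the 8, since the precursor markers Pdgfra (-0.17) and Cspg4 (-0.14) lay nearer 0. The difference between lists was not tested.

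**Figure D5:**
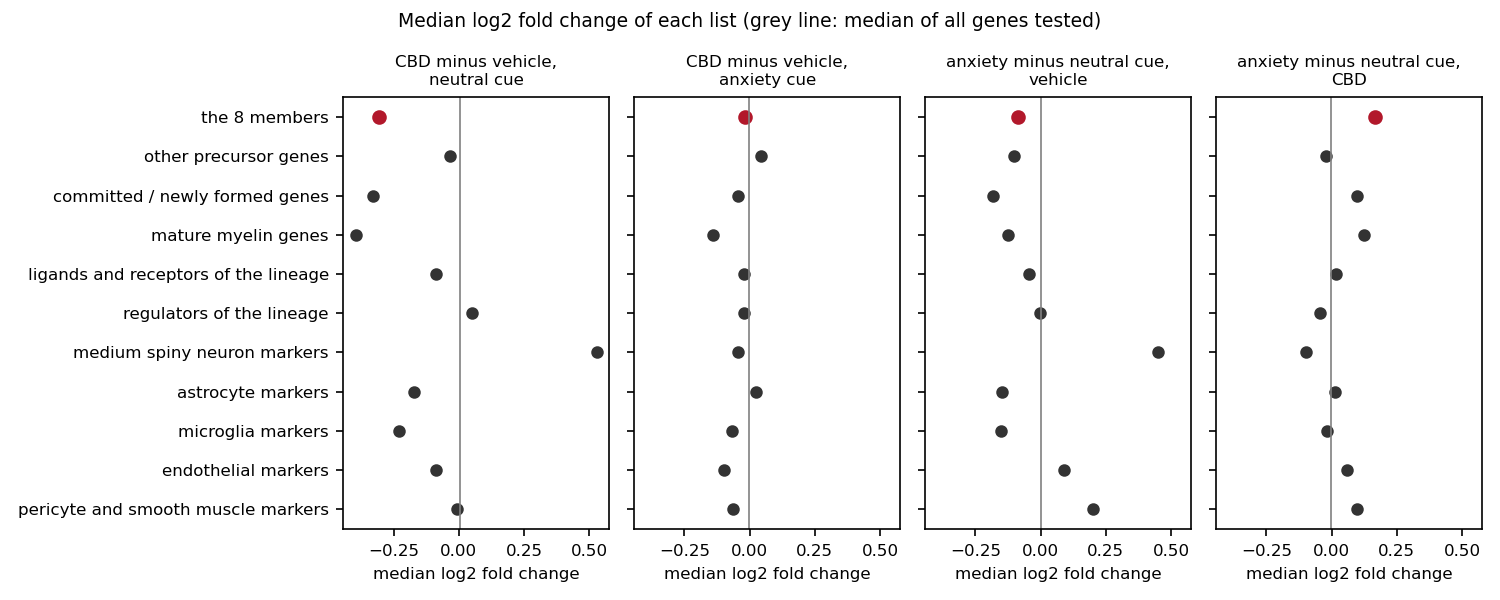
Median log2 fold change (horizontal axis) of the 8 genes and of part of the fixed lists, in the 4 comparisons of pairs of groups. A grey line marks the median of the 17059 genes tested. Under the neutral cue, CBD against vehicle, the 8 genes (-0.30), the committed list (-0.33) and the myelin list (-0.40) lie to the left and medium spiny neuron markers (0.53) to the right. The fibroblast (-0.91), septal and diencephalic (-0.81), cortical (1.51), liver (0.63) and fat cell (-3.54) lists are not drawn. In that comparison their medians lay farther from 0 than those of the lists named as drawn.

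Among the precursor genes of that list, Megf11 averaged 33.3 ± 3.66 CPM in CBD neutral-cue libraries and 43.8 ± 11.9 CPM in vehicle neutral-cue libraries (SD, n = 8 each), a log2 fold change of -0.39 (adjusted p = 0.102 by edgeR). Sox6, which holds precursors back from differentiation, was at -0.44 (adjusted p = 0.145). Of the committed list, Bcas1, a marker of early myelinating cells, averaged 140 ± 30.9 CPM in CBD neutral-cue libraries and 203 ± 30.0 CPM in vehicle neutral-cue libraries, a log2 fold change of -0.53 (adjusted p = 0.107). Cnksr3 was at -0.43 (adjusted p = 0.123). Of the myelin list, Mbp, a main structural protein of myelin, was at -0.49 (adjusted p = 0.112) and Apod, a lipid carrier, at -0.50 (adjusted p = 0.105). These genes were picked by p within their lists, so their size does not describe the lists.

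Signals that act on the lineage were less uniform. Of 31 ligands and receptors tested, 21 were below 0 in CBD against vehicle under the neutral cue, with a median of -0.088. Shh, the ligand that induces Olig2 in development, averaged 1.35 ± 0.711 CPM in CBD neutral-cue libraries and 6.32 ± 6.71 CPM in vehicle neutral-cue libraries (log2 fold change -2.21, adjusted p = 0.109 by edgeR). The SD of the vehicle libraries exceeded their mean. Smo, the transducer of the Shh signal, was at -0.53 (adjusted p = 0.112).

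Of 31 transcriptional and chromatin regulators, 12 were below 0 and the median was 0.051. Thrb, a thyroid hormone receptor, averaged 56.8 ± 15.3 CPM in CBD neutral-cue libraries and 40.0 ± 10.5 CPM in vehicle neutral-cue libraries (log2 fold change 0.51, adjusted p = 0.147 by edgeR). Hdac2, a histone deacetylase needed for differentiation of the lineage, was at 0.22 (adjusted p = 0.157). Neither list followed the 8 genes as closely as the committed and myelin lists did, a difference that was not tested.

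In the other comparisons the committed and myelin lists stood nearer 0 than they did for CBD against vehicle under the neutral cue, while the other precursor genes did so only for the cue in CBD libraries. For CBD against vehicle under the anxiety cue, the medians were 0.044 for other precursor genes, -0.045 for the committed list and -0.14 for the myelin list, in which 18 of 20 genes were below 0. Without library 5 of vehicle with the anxiety cue these medians were 0.13, 0.012 and -0.040, and without library 2 of CBD with the anxiety cue they were -0.017, -0.13 and -0.21, so that single libraries set the sign for the first 2 lists. For the anxiety cue against the neutral cue in vehicle libraries, they were -0.10, -0.18 and -0.13, with 14 of 14 committed genes and 19 of 20 myelin genes below 0. With 1 library left out, the myelin median ranged from -0.22 without library 5 to -0.076 without library 8, both of vehicle with the anxiety cue. For the cue in CBD libraries, they were -0.022, 0.098 and 0.12, with 19 of 20 myelin genes above 0. The precursor median was 0.039 without library 1 of CBD with the neutral cue, the committed median 0.029 without library 2 of CBD with the anxiety cue, and the myelin median 0.054 without library 6 of CBD with the neutral cue. In the same 3 comparisons the 8 genes stood at -0.019, -0.088 and 0.16.

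Markers of other cells that could share the tissue were measured in the same fits. Under the neutral cue, CBD against vehicle, the median was -0.17 for 12 astrocyte markers, -0.23 for 12 microglia markers (12 of 12 below 0), -0.087 for 9 endothelial markers, and -0.0068 for 10 pericyte and smooth muscle markers, among them cells that also make Cspg4. For 10 fibroblast markers, of cells that also make Pdgfra, it was -0.91 with 8 of 10 below 0. Their summed level was 50.5 to 93.8 CPM in CBD neutral-cue libraries and 48.8 to 201 CPM in vehicle neutral-cue libraries. The median was 1.51 for 5 cortical markers, 0.63 for 7 liver markers and -3.54 for 8 fat cell markers. Cortical markers summed to 1147 CPM in library 6 of CBD with the neutral cue. The median of that sum was 14.9 CPM in CBD neutral-cue libraries and 19.9 CPM in vehicle neutral-cue libraries, the opposite direction to the fitted value. Medium spiny neuron markers summed to 7319 to 10430 CPM in CBD neutral-cue libraries and 2130 to 10210 CPM in vehicle neutral-cue libraries. The part of these cells in the difference of the 8 genes was not tested, apart from the fits above.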

How the data were processed

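Polyadenylated RNA of the rat nucleus accumbens shell was sequenced in 32 libraries, 8 for each of 4 groups taken from the treatment label. Extraction used a Zymo kit, and library preparation and sequencing were done by a service company, per the labels. The values are raw counts of reads per gene symbol as the authors deposited them, in 34322 rows. The submitters' processing notes name STAR, featureCounts and DESeq2, without versions, and 2 builds, mRatBN7.2 and Rnor_6.0, without saying which served for what.

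Every column was tied to a library by its title, and 0 columns were left without one. The test was edgeR's quasi-likelihood test (edgeR 4.0.16, R 4.3.3) after TMM scaling, on the 17059 genes that passed filterByExpr with the groups given; 17263 did not. The 4 group means were fitted together, so the spread was estimated once from the 32 libraries (common BCV, the biological coefficient of variation, 0.215). Adjusted p-values are Benjamini-Hochberg values over the whole set of genes that passed, called at 0.05. SEs and 95% intervals come from the same fit. Log2 CPM carried a prior count of 2. No 2 libraries held identical counts. The scripts were tested on simulated counts with known changes before use.

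The 8 genes, the gene lists and the marker cut-offs (20 CPM of Slc17a6, 5 CPM of Plin1 and 20 CPM of Alb, scaled by library total without TMM) were chosen with earlier results of these data known. Named besides the 8 genes are, per list and comparison, the 2 genes with the smallest p, of which some are printed, preset tissue markers, and the 3 genes with the highest Pearson's r to each of the 8. Correlations used group-centred log2 CPM in Python 3.11.15, with 100000 permutations within groups, whose smallest p is 1e-05. Replicate numbers follow the order of deposition and pair no libraries. Of the symbols, 27234 (79.3%) matched the RefSeq table of GRCr8, and 8 of the 8 genes did.

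Alternatives were DESeq2 1.42.0 as the test, its size factors within edgeR, keeping every gene with a count, keeping genes at 1 CPM in 8 libraries, fits of the 2 groups alone, fits without libraries high in Slc17a6, Plin1 or Alb, a neuron marker covariate, and leaving out each library. Left out, after the data were seen, were the libraries high in Slc17a6 together with library 6 of CBD with the neutral cue.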

Additional observations from a re-analysis of the deposited data

Results flagged for a closer look

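Nkx2-2 was at 11.9 CPM in library 5 of vehicle with the anxiety cue, far above the next of that group, 6.48 CPM. The gap was 0.628 of the group's range, over the limit for 8 values in Dixon's test. It was the 1 such library among 32 checks of 8 genes in 4 groups. Chance gives a flag in about 1 of 20 checks, so 1 flag in 32 checks is no more than chance would give. This library is also 1 of the 6 with Slc17a6 at 20 CPM or more, and it held the highest level of all 32 libraries for 5 of the 8 genes. Without it, Nkx2-2 was at -0.58 for the anxiety cue against the neutral cue in vehicle libraries, against -0.37 with it, and at 0.80 in the interaction, against 0.59.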

How the results depend on the processing

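Of 40 results (8 genes in 5 comparisons), 28 of 392 values under other settings and 38 of 1280 values with 1 library left out had the opposite sign. For CBD against vehicle under the neutral cue, none of the 8 genes turned in any fit. There the number of the 8 called was 0 in edgeR, 2 with DESeq2's test, 2 without libraries high in Plin1 and 0 to 1 with 1 library left out. Without libraries high in Plin1, 3 were called for the cue in vehicle libraries and 1 in the interaction. Of the 3 vehicle neutral-cue libraries kept there, library 7 and library 8 were high in Slc17a6. The cause of these changes was not tested.

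For the cue in vehicle libraries, Myrf was at 0.037 and Cspg4 at -0.0047 without libraries high in Slc17a6, Cspg4 at -0.094 without those high in Plin1, Myrf at 0.0074 and Gpr17 at 0.012 without those high in Alb, and Sox10 at 0.055, Myrf at 0.13 and Gpr17 at 0.064 with the neuron covariate. For the cue in CBD libraries, Pdgfra was at -0.016 without libraries high in Slc17a6. For CBD under the anxiety cue, without libraries high in Plin1, Olig1 was at 0.13, Olig2 at 0.17, Sox10 at 0.069, Myrf at 0.016, Pdgfra at 0.038, Cspg4 at 0.12 and Gpr17 at 0.0071, and without those high in Alb, Olig1 was at 0.061, Olig2 at 0.035, Pdgfra at 0.0037 and Cspg4 at 0.0022. With the neuron covariate, Myrf was at -0.0090 in the interaction.

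The setting chosen after the data were seen, without libraries high in Slc17a6 and library 6 of CBD with the neutral cue, put Myrf at 0.036 and Cspg4 at -0.0057 for the cue in vehicle libraries, Sox10 at -0.045, Myrf at -0.0053, Pdgfra at -0.029 and Gpr17 at -0.026 for the cue in CBD libraries, and Myrf at -0.041 in the interaction.

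With 1 library left out, the cue in vehicle libraries gave -0.087 to 0.048 for Myrf, -0.036 to 0.071 for Cspg4 and -0.059 to 0.022 for Gpr17. CBD under the anxiety cue gave -0.064 to 0.052 for Olig1, -0.076 to 0.10 for Olig2, -0.14 to 0.031 for Sox10, -0.055 to 0.017 for Pdgfra and -0.066 to 0.041 for Cspg4. For CBD under the neutral cue the range was -0.56 to -0.45 for Olig2 and -0.50 to -0.37 for Olig1.

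No paired analysis was possible because the labels give no replicate numbers, and numbers in order of deposition pair nothing. Depth limited Nkx2-2 most, with counts from 49 upward. Fits with DESeq2's size factors or other filters on low counts changed no call.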
